A study of Rattus norvegicus with 12 samples.

Results

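Oxidative phosphorylation genes of the central nucleus of the amygdala (CeA) were compared between rats given chronic intermittent ethanol (CIE) and air controls. The genes were chosen by name. They were the nuclear names that start with *Ndufa*, *Ndufb*, *Ndufc*, *Ndufs*, *Ndufv*, *Sdh*, *Uqcr*, *Cox4* to *Cox8* or *Atp5*, and the mitochondrial names *ATP6*, *ATP8*, *CYTB*, *ND* and *COX* with a digit. In all, 117 of the 37209 listed genes matched, and 105 of them had at least 10 counts in at least 6 rats. These 105 members, 92 nuclear and 13 encoded by mitochondrial DNA, were all among the 20944 genes that were tested. The members included subunits, assembly factors and a few copies and pseudogenes that share the names.

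All 12 rats were wild type male Sprague Dawley rats aged 14 to 16 weeks. Rats 1 to 6 formed the CIE group, labelled Chronic Intermittent alcohol and taken immediately after the last exposure, and rats 7 to 12 formed the Control group, labelled Air Control. Poly-A RNA from 1 CeA punch sample per rat was sequenced, and library totals were 61978486 to 78441691 counts among CIE rats and 39082548 to 95647601 counts among Control rats. The numbers give no pairs, and whatever follows their order cannot be told apart from CIE. Summed markers of neurons lay between 3754 and 4370 CPM (counts scaled to library size) in the CIE rats and between 4054 and 4304 CPM in the Control rats. Markers of central amygdala neurons were present in every rat (473 to 1648 CPM and 594 to 2038 CPM), and markers of cortical glutamatergic neurons, which lie beside the CeA, reached 473 CPM (median 149) among CIE rats and 173 CPM (median 31.6) among Control rats. Markers of striatal projection neurons, which also lie beside the CeA, summed to 3936 CPM in Control rat 10 and 3548 CPM in CIE rat 2. The other rats had 279 to 1639 CPM. The central amygdala sum was highest in the same 2 rats. *Penk* was its largest part, with means of 762 CPM among CIE rats and 671 CPM among Control rats. *Prkcd* averaged 31.7 and 34.9 CPM, and *Crh* 5.97 and 8.15 CPM. The sum is therefore no measure of how much CeA a sample held.

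Oxidative phosphorylation takes place in the inner mitochondrial membrane. Complexes I and II pass electrons from NADH and succinate to ubiquinone, complex III passes them to cytochrome c, and complex IV passes them to oxygen. Complexes I, III and IV pump protons, and ATP synthase uses the returning protons to make ATP. All of these except complex II combine subunits encoded in the nucleus with subunits encoded by mitochondrial DNA, and neurons depend on them to pay for ion pumping and synaptic transmission.

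Most members had slightly lower values in the CIE group, and few single genes passed a test. No member passed the 5% false discovery rate (FDR) in edgeR's quasi-likelihood F test, against 0.363% of all genes tested. At a nominal p value below 0.05, 8 of the 105 members (7.62%) were lower in the CIE group, against 4.31% of all genes, and 0 were higher, against 4% of all genes. The nominal count changed with the rat that was left out. Without CIE rat 3, 47 members were lower and 1 was higher, against 6.92% of all genes lower in the same fit. Without Control rat 7, 21 members were lower, against 4.34% of all genes, and without Control rat 10, 2 were lower, against 4.44%. Without CIE rat 6, 2 were lower, against 5.2%. Leaving out CIE rat 1, CIE rat 4 or Control rat 8 gave 3 lower members each (2.86%). The shares of all genes in those fits were 3.54%, 3.35% and 2.87%. DESeq2, with all 12 rats, called 1 member at 5% FDR, *Cox4i2*, against 1.18% of the genes it tested. The log2 fold change (log2FC, CIE minus Control) was negative in 97 members (92.4%), against 49.7% of all genes tested. Its median over the members was -0.11, against a median of 0.00 over all genes tested. Without Control rat 10, 82 members were negative and the median was -0.06. Without CIE rat 6, 86 were negative and the median was -0.08. The other fits that left out 1 rat gave 95 to 99 negative members. In these bulk samples, fewer cells of a type and less RNA per cell cannot be told apart.

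**Figure D1:**
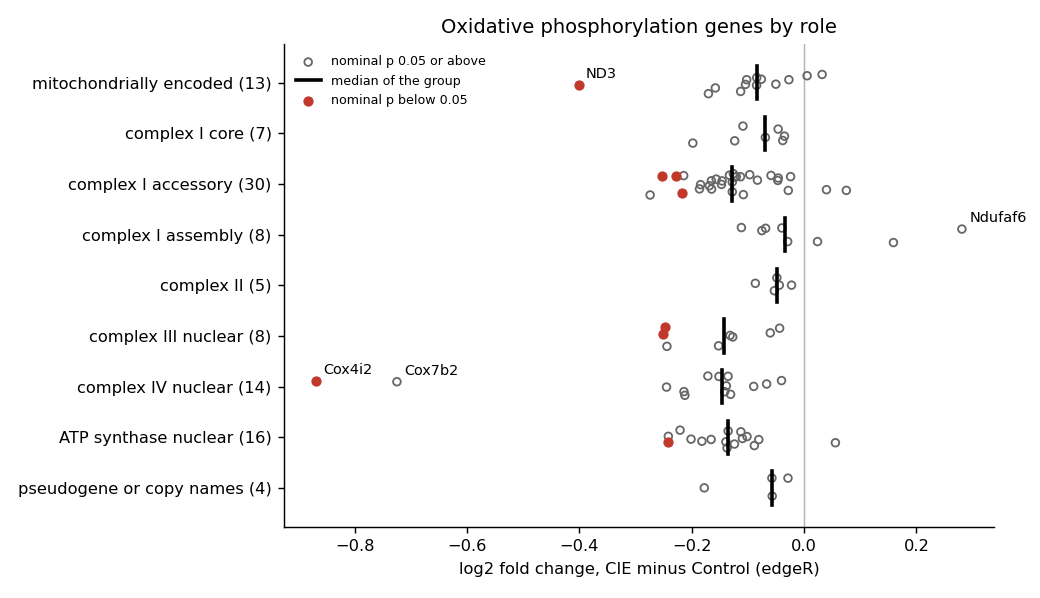
Each point is one of the 105 members, placed by its log2 fold change (CIE minus Control, edgeR) in a row for its role, with the number of members in parentheses; filled red points had a nominal p value below 0.05 and black bars are row medians. Nearly all points lie left of 0, the medians lie between -0.15 and -0.03, and *Cox4i2* and *Cox7b2* lie farthest left.

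By role, the median log2FC was -0.07 over 7 core subunits of complex I, -0.13 over its 30 accessory subunits and -0.03 over 8 complex I assembly factors. It was -0.05 over 5 complex II genes, -0.14 over 8 nuclear complex III genes, -0.15 over 14 nuclear complex IV genes, -0.14 over 16 nuclear ATP synthase genes and -0.08 over the 13 mitochondrially encoded members. Negative values were found in all 8 genes of complex III, all 14 of complex IV and 15 of 16 of ATP synthase, but in 5 of 8 complex I assembly factors. The share over all genes tested was 49.7%. The 4 members with pseudogene or copy names had a median of -0.06.

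Promoters of the nuclear members were searched for short letter patterns, which the choice of members did not use. At least 1 of the NRF1, ETS or YY1 letters was held by 28 of 77 (36.4%). The share was 8.07% of all windows and 13.9% of the tested genes with a window. NRF1, the ETS factor GABPA and YY1 are known regulators of nuclear genes for the respiratory chain. RefSeq promoter windows on GRCr8, running from 250 bases before to 50 bases after the start, were found for 77 of 92 nuclear members, of which 74 names matched a symbol and 17 a synonym of the annotation. The NRF1 core letters CGCATGCG, on either strand, occurred in 9 of the 77 windows (11.7%) and in 1.66% of all 33469 windows. The ETS letters CCGGAAGT occurred in 8 windows (10.4%, against 3.81% of all windows), and the YY1 letters AAGATGGC in 16 (20.8%, against 3.17%). The NF-Y letters CCAAT occurred in 25 windows (32.5%), a share below that of all windows (37.5%). These shares are given without a test, and 49 of the 77 windows held none of the first 3 patterns.

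Of the 16 windows with the YY1 letters, 13 (81.3%) had them on the gene's strand at base 250 or later, counted from 1 at the 5′ end of the window, whereas this held for 378 of 1062 such windows overall (35.6%). These letters include ATG. The GC content of the members' windows was higher, with a median of 57% against 51.7% over all windows, and its part in the shares was not tested. Within the 12718 tested genes with a window, the shares were 3.15% for NRF1, 7.01% for ETS, 4.90% for YY1 and 38.5% for NF-Y. The windows of 4 members named in the results are shown with every match in capitals. They were picked to show an overlapping NRF1 pair (*Ndufa11*), the YY1 letters past the start (*Atp5j2*, now named *Atp5mf*), a CCAAT box (*Ndufb2*) and 3 of the patterns in 1 window (*Uqcrc1*).
Ndufa11, chr9:1637364-1637663, + strand: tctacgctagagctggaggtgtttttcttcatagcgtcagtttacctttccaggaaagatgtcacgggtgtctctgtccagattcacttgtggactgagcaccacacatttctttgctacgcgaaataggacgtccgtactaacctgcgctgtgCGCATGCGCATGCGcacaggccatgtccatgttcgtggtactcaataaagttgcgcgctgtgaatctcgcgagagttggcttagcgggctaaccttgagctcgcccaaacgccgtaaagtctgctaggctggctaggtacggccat
Atp5j2, chr12:14535185-14535484, + strand: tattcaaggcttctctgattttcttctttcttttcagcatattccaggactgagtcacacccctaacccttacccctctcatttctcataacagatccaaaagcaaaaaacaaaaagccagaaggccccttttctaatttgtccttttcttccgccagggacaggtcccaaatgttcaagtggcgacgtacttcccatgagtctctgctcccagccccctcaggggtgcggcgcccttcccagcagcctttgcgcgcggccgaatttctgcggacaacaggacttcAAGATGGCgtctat
Ndufb2, chr4:69334057-69334356, + strand: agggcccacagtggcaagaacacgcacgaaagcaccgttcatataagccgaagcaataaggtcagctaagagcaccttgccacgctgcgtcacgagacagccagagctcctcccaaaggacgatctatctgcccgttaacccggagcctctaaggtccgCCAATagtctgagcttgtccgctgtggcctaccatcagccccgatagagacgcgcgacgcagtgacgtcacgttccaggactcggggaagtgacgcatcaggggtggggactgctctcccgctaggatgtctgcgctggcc
Uqcrc1, chr8:118467973-118468272, + strand: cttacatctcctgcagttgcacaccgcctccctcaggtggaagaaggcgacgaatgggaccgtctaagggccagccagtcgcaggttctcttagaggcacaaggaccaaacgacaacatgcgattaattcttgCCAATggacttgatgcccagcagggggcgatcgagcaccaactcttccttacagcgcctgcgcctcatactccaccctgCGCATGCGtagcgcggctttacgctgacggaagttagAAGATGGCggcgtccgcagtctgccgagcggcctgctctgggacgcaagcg
A match is only a match of letters. The 28 members with the letters of NRF1, ETS or YY1 had a median log2FC of -0.13 and the 49 without them a median of -0.12. No difference between them was tested.

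Nuclear genes of complex I, the NADH dehydrogenase, made up 3 of the 8 nominal members. *Ndufb2*, an accessory subunit of the membrane arm whose promoter shows the CCAAT box, measured 42.2 CPM in the lowest, 45.5 in the median and 55.7 in the highest CIE rat. In the Control group it measured 49.3, 54.5 and 60.5 CPM. The values of CIE rats 1, 4, 5 and 6 lay below all Control rats, and the groups overlapped through rats 2 and 3. Its log2FC was -0.22 (SE 0.08, FDR = 0.416), and the nominal call was made again in 12 of 12 fits that left out 1 rat.

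*Ndufa11*, an accessory subunit of the membrane arm whose promoter holds the overlapping NRF1 letters, ranged from 24.8 to 38.8 CPM (median 32.3) among CIE rats and from 33.2 to 41.2 CPM (median 37.7) among Control rats. Rats 1, 4 and 6 lay below every Control rat. The log2FC was -0.23 (SE 0.10, FDR = 0.558).

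*Ndufa12*, an accessory subunit at the junction of both arms, ranged from 16.2 to 25.7 CPM (median 19.5) among CIE rats and from 19.7 to 27.2 CPM (median 23.7) among Control rats. The groups overlapped, with 3 CIE rats below and 2 Control rats above the other group. The log2FC was -0.25 (SE 0.11, FDR = 0.566). Its paralogue *Ndufaf2* is an assembly factor that leaves complex I before *Ndufa12* takes its place, and its value had the opposite sign (0.16, SE 0.10, FDR = 0.740).

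Another 4 accessory subunits were next in order of p. *Ndufa3* had a log2FC of -0.21 (FDR = 0.615), *Ndufb5* of -0.18 (FDR = 0.621), *Ndufc2* of -0.16 (FDR = 0.622) and *Ndufa2* of -0.27 (FDR = 0.625), all by edgeR. *Ndufa2*, a matrix-facing subunit, ranged from 17.6 to 30.3 CPM among CIE rats and from 19.6 to 32.3 CPM among Control rats, and its highest CIE value came from rat 3.

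The largest positive value among the members was that of *Ndufaf6*, an assembly factor, at 0.28 (SE 0.16, FDR = 0.705). *Ndufaf2* and *Ndufaf6* were named after their values were seen. The other positive values were those of *Ndufv3* (0.08), *Atp5s* (0.06), *Ndufb4* (0.04), *ND6* (0.03), *Atp5sl* (0.02) and *COX1* (0.01).

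Complex II, the succinate dehydrogenase, was the most even of the nuclear groups that carry electrons, with log2FC values from -0.09 (*Sdhc*) to -0.02 (*Sdha*). *Sdha*, the flavoprotein subunit, ranged from 264 to 315 CPM (median 284) among CIE rats and from 277 to 311 CPM (median 283) among Control rats. The ranges lay almost on top of each other (log2FC -0.02, SE 0.06, FDR = 0.949).

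Complex III, the cytochrome bc1 complex, held 2 nominal genes, both small subunits. *Uqcrb*, a ubiquinone-binding subunit, ranged from 11.9 to 16.7 CPM (median 13.1) among CIE rats and from 14.3 to 18.5 CPM (median 16.7) among Control rats. CIE rats 1, 2, 4 and 6 lay below every Control rat, while rats 3 and 5 lay inside the Control range. The log2FC was -0.25 (SE 0.10, FDR = 0.517).

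*Uqcr10*, a membrane subunit, ranged from 41.6 to 62.2 CPM (median 44.2) among CIE rats and from 45.2 to 70.0 CPM (median 57.1) among Control rats. Its log2FC was -0.25 (SE 0.11, FDR = 0.595), with 3 CIE rats below all Control rats. *Uqcrc1*, the core protein with the highest mean CPM and with 3 patterns in its promoter, differed less, with 227 to 281 CPM in the CIE group, 239 to 275 CPM among Control rats and a log2FC of -0.06 (SE 0.07, FDR = 0.865).

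Complex IV, the cytochrome c oxidase, held the member with the smallest p value. *Cox4i2* encodes the less common isoform of subunit 4, known for its response to low oxygen and, in the brain, for its enrichment in pericytes. It measured 0.600 CPM in the lowest, 1.06 in the median and 1.25 in the highest CIE rat, and 1.30, 1.98 and 2.09 CPM in the Control rats. All 6 CIE rats lay below all 6 Control rats, and the closest were CIE rat 6 and Control rat 12. *Cox4i2* was the 1 member of 105 whose groups did not overlap with lower CIE values, against 0.554% of all genes tested. These levels rest on 39 to 199 counts per rat.

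The log2FC of *Cox4i2* was -0.87 (SE 0.19), with FDR = 0.0918 in edgeR's test. DESeq2 gave -0.86 and an FDR of 0.00222. In the 12 fits that left out 1 rat the value stayed between -0.95 and -0.76, with an FDR from 0.0586 to 0.249. The common isoform, *Cox4i1*, ranged from 256 to 373 CPM among CIE rats and from 269 to 382 CPM among Control rats, with a log2FC of -0.07 (SE 0.11, FDR = 0.916). The *Cox4i2* share of the counts of both isoforms was 0.338% ± 0.0952 (SD, n = 6) among CIE rats and 0.580% ± 0.0753 (SD, n = 6) among Control rats. On this scale the groups overlapped, with 0.222% to 0.484% among CIE rats and 0.448% to 0.638% among Control rats.

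Some markers of mural cells, the pericytes and smooth muscle cells of vessels, were also lower in the CIE group. Of 9 tested mural markers, 5 were lower at a nominal p value below 0.05 and 0 were higher, with a median log2FC of -0.30. Their summed level was 159 to 259 CPM among CIE rats and 202 to 232 CPM among Control rats. The sum was highest of all rats in CIE rat 6 (259 CPM). That rat also had the highest *Cox4i2* value of the CIE group (1.25 CPM), below every Control rat. The sum was lowest in CIE rat 3 (159 CPM), and *Cox4i2* was lowest in CIE rat 1 (0.600 CPM). *Myh11*, a smooth muscle myosin, was too low to be tested. The potassium channel gene *Kcnj8* had a log2FC of -0.96 (FDR = 0.0300) and the receptor gene *Pdgfrb* of -0.45 (FDR = 0.0758). *Rgs5* (-0.30), *Abcc9* (-0.45) and *Anpep* (-0.46) also passed the nominal threshold. *Acta2* (-0.25), *Notch3* (-0.01), *Cspg4* (0.10) and *Tagln* (0.14) did not pass it. By the same threshold, endothelial markers were lower in 5 of 9 and higher in 1 of 9, with 231 to 296 CPM and 247 to 315 CPM. Marker sums of red blood cells (34.3 to 106 CPM against 145 to 250 CPM) and of meningeal fibroblasts (53.0 to 102 CPM against 109 to 173 CPM) lay lower in every CIE rat than in every Control rat, as *Cox4i2* did. Of 6 tested red blood cell markers 5 were lower at the nominal threshold and 3 of them at 5% FDR, with a median log2FC of -1.73, although the globin genes *Hbb* and *Hbb-b1* among them are near copies and may share reads. Of 10 fibroblast markers 5 were lower and 3 of them at 5% FDR, with a median of -0.47. The part of these markers in the *Cox4i2* difference was not tested.

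*Ndufa4l2*, a paralogue of the complex IV subunit *Ndufa4* that is also known from pericytes and low oxygen, had overlapping groups. It ranged from 3.57 to 5.73 CPM (median 5.13) among CIE rats and from 4.22 to 5.74 CPM (median 4.97) among Control rats, and its log2FC was -0.04 (SE 0.14, FDR = 0.962). Its sign turned in 4 of the fits that left out 1 rat.

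The other isoform pairs of complex IV gave small or poorly measured differences. *Ndufa4* had a log2FC of -0.25 (SE 0.14, FDR = 0.695), *Cox6a1* of -0.14, *Cox6b1* of -0.15 and *Cox8a* of -0.13. *Cox6b2*, known from testis, had -0.21 (SE 0.29, FDR = 0.898) at 0.766 to 3.01 CPM and 1.84 to 3.51 CPM. *Cox7b2*, also known from testis, had -0.73 with a large error (SE 0.55, FDR = 0.795) on 4 to 57 counts per rat.

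**Figure D2:**
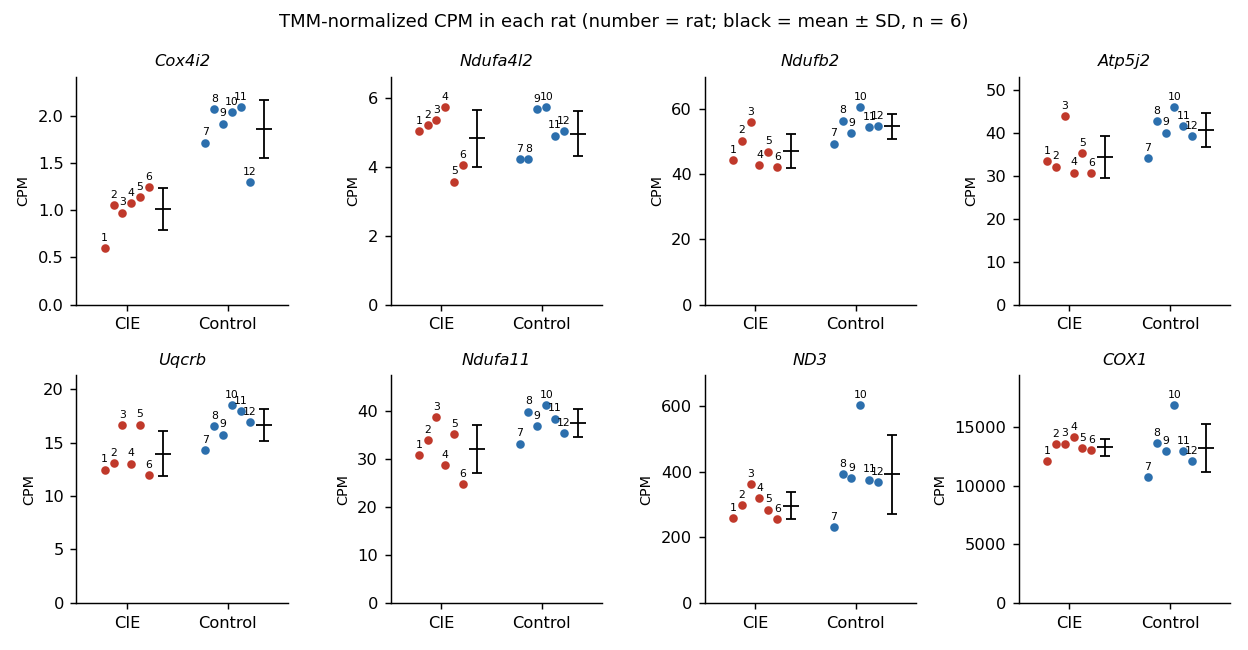
Vertical axes give TMM-normalized CPM from 0 and each point is 1 rat, numbered as in the labels, with the mean ± SD (n = 6) in black. The groups are apart for *Cox4i2* (0.600 to 1.25 against 1.30 to 2.09 CPM), overlap for the other 7 genes, and Control rats 7 and 10 stand lowest and highest for *ND3* and *COX1*.

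Among the nuclear ATP synthase genes, *Atp5j2*, subunit f of the membrane part, had the smallest p value. It measured 30.7, 32.9 and 44.0 CPM (lowest, median and highest) among CIE rats and 34.3, 40.9 and 46.2 CPM among Control rats. CIE rats 1, 2, 4 and 6 lay below all Control rats, and CIE rat 3, with 44.0 CPM, lay above all Control rats but rat 10. The log2FC was -0.24 (SE 0.09, FDR = 0.494). The catalytic beta subunit *Atp5b*, the nuclear member of this complex with the highest mean CPM, ranged from 775 to 974 CPM and from 844 to 1073 CPM, with a log2FC of -0.08 (SE 0.08, FDR = 0.844).

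The 13 protein-coding mitochondrial genes took 4.41% to 5.21% of all counts among CIE rats and 3.71% to 6.41% among Control rats. The means were 4.80% ± 0.319 (SD, n = 6) and 4.97% ± 0.860 (SD, n = 6). Both ends of the Control range were single rats, with rat 7 at 3.71% and rat 10 at 6.41%, and the other 4 lay between 4.85% and 5.04%. The spread between Control rats was thus wider than the difference between the group means.

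*ND3*, a core membrane subunit of complex I, was the mitochondrial gene with a nominal call. It measured 255, 291 and 362 CPM (lowest, median and highest) among CIE rats and 230, 378 and 602 CPM among Control rats. Rat 7 held the lowest Control value, below every CIE rat, and the other 5 Control rats lay above every CIE rat. The log2FC was -0.40 (SE 0.17, FDR = 0.554). It was -0.52 without Control rat 7 and -0.23 without Control rat 10, and a nominal call was made in 7 of 12 fits that left out 1 rat.

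As a share of the counts of the 13 mitochondrial genes, which does not depend on how much mitochondrial RNA a library holds, *ND3* took 0.548% to 0.718% among CIE rats and 0.633% to 0.890% among Control rats. The means were 0.619% ± 0.0579 and 0.766% ± 0.0818 (SD, n = 6 each). On this scale too, 5 of 6 Control rats lay above every CIE rat, and rat 7 lay inside the CIE range. A share is moved by every other gene in the sum, so it shows unequal values within the 13 genes and not which of them differed.

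The other mitochondrial genes gave log2FC values from -0.17 (*COX2*, FDR = 0.762) to 0.03 (*ND6*, FDR = 0.961). *COX3* had -0.16, *ATP8* -0.11, *ATP6* and *ND4L* -0.10 each, and *CYTB*, *ND1* and *ND2* -0.08 each. *ND4* had -0.05 and *ND5* -0.03. *COX1*, the catalytic subunit of complex IV, ranged from 12105 to 14166 CPM among CIE rats and from 10786 to 16904 CPM among Control rats, with a log2FC of 0.01 (SE 0.09, FDR = 0.992). It took the most counts of the 13, with 27.9% ± 0.788 of their sum among CIE rats and 26.6% ± 1.68 (SD, n = 6 each) among Control rats.

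*COX2*, the copper-bearing subunit that receives electrons from cytochrome c, took 6.77% to 8.02% of the mitochondrial sum among CIE rats and 7.55% to 7.90% among Control rats. On this scale 5 of 6 CIE rats lay below every Control rat, and rat 3 lay above them all. Counts of *ATP8* and *ATP6*, and of *ND4L* and *ND4*, share overlapping sequence, and *ND6* lies on the other strand from its neighbours, so these genes carry an uncertainty that depends on the counting settings. The sources used here do not give those settings. Shares of counts also depend on transcript length and are no measure of relative level between genes.

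The nuclear members moved together from rat to rat. The median deviation of the 92 nuclear members from their own means over 12 rats, on a log2 CPM scale, was highest in CIE rat 3 and Control rat 10 (0.22 each) and lowest in CIE rat 6 (-0.29). In CIE rat 3, 86 of the 92 lay above their own mean, and in Control rat 10, 83 did. In CIE rats 1, 4 and 6 and Control rat 7, only 8, 9, 7 and 6 of the 92 did. The group means of this deviation were -0.06 ± 0.17 and 0.06 ± 0.11 (SD, n = 6 each), and the difference between the groups was about as large as the SD within them.

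The mitochondrially encoded members did not follow the same order. CIE rat 4 had 11 of 13 of them above their mean and 9 of 92 nuclear members. Their median deviation was lowest in Control rat 7 (-0.42) and highest in Control rat 10 (0.51), against a span from -0.12 to 0.12 in the CIE group. The summed mitochondrial CPM was 5.44 to 6.90 times the summed nuclear CPM among CIE rats and 4.84 to 7.09 times among Control rats.

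Ribosomal protein genes moved with the nuclear members. Cytosolic ribosome genes (75 tested) had their highest median deviation in CIE rat 3 (0.32) and their lowest in CIE rat 6 (-0.28), and mitochondrial ribosome genes (72 tested) had theirs in the same rats (0.21 and -0.28). Of the cytosolic ribosome genes 5 (6.67%, against 4.31% of all genes) were lower at a nominal p value below 0.05 and 0 were higher, with a median log2FC of -0.07. The smallest p was that of *Rplp2*, a stalk protein, at -0.42 (FDR = 0.503). Of the mitochondrial ribosome genes 0 passed in either direction, with the same median of -0.07. Most values were negative here too, in 62 of 72 mitochondrial and 59 of 75 cytosolic ribosome genes, against 49.7% of all genes tested.

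**Figure D3:**
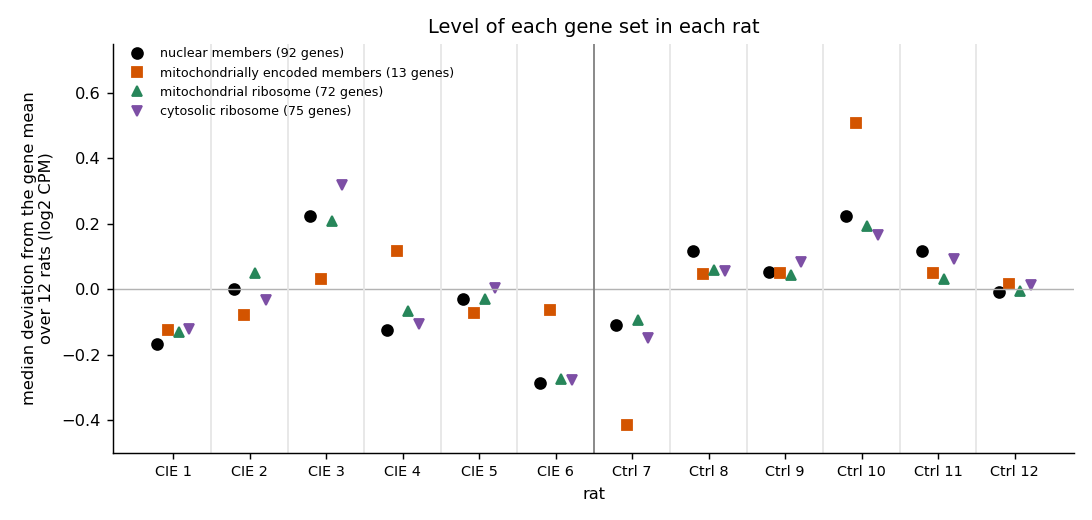
For each rat, points give the median over a gene set of each gene's deviation from its own mean over the 12 rats, in log2 CPM, for nuclear members, mitochondrially encoded members and both kinds of ribosomal protein gene. Nuclear members and ribosomal protein genes are high in CIE rat 3 and low in CIE rat 6, and the mitochondrially encoded members are far out in Control rats 7 (-0.42) and 10 (0.51).

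The members called depended on which rat was left out. Only *Cox4i2* and *Ndufb2* were called lower without Control rat 10 and without CIE rat 6, against 5.2% of all genes in the latter fit. Members called higher were *Ndufaf2* without CIE rat 3 (6.36% of all genes higher) and *Ndufaf6* without CIE rat 1 (3.12%) and without CIE rat 6 (4.07%). With limma-voom and sample quality weights, 24 members were lower and *Ndufaf2* was higher, against 8.61% of all genes lower and 8.56% higher. No member passed 5% FDR in any of these fits. Among the 8 nominal members, *Cox4i2* and *Ndufb2* were called in 12 of 12 fits that left out 1 rat, *Atp5j2* in 8, *ND3* in 7, *Uqcrb* and *Ndufa11* in 6 each, *Ndufa12* in 5 and *Uqcr10* in 4. All 8 kept a negative value in all 12 fits.

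**Figure D4:**
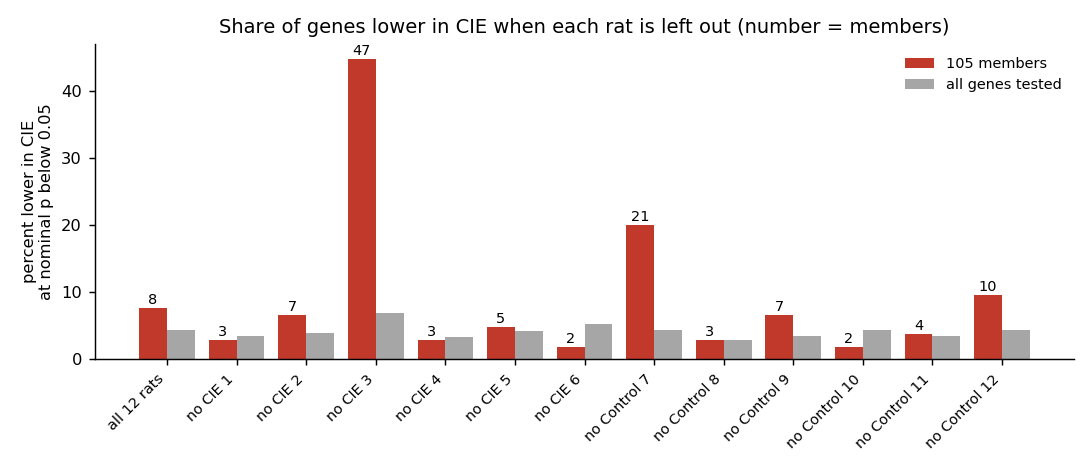
Red bars give the percent of the 105 members, and grey bars the percent of all genes tested, that were lower in the CIE group at a nominal p value below 0.05 with all rats and with each rat left out, and the numbers are counts of members. The red bar rises from 8 members with all rats to 47 without CIE rat 3 and 21 without Control rat 7, and it drops to 2 without Control rat 10 and without CIE rat 6.

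Markers of myelinating oligodendrocytes also differed between the groups. All 10 were lower at a nominal p value below 0.05, with a median log2FC of -0.60 and summed levels of 5732 to 13885 CPM among CIE rats and 8808 to 16502 CPM among Control rats. Of 10 neuron markers 0 passed in either direction, with a median of 0.00. Astrocyte markers passed in 2 genes lower and 2 higher of 10. In Control rat 10, which moved the members' counts when left out, the striatal sum given above was the highest of the 12 rats. CIE rat 2 had the next highest sum, and without it 7 members were lower, against 3.90% of all genes. In CIE rat 3, which moved the count most, the striatal sum was 655 CPM. Its oligodendrocyte sum, 5732 CPM, was the lowest of the 12 rats. CIE rat 6 held the highest oligodendrocyte sum of the CIE group (13885 CPM). Control rats 7 and 10 had 12212 and 15373 CPM. The part of cell makeup in the members' values was not tested.

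Genes outside the name rule, from assembly factors and regulators to the tricarboxylic acid cycle and glycolysis, gave few calls at a nominal p value below 0.05. Of 114 such genes 5 were higher in CIE rats (4.39%, against 4% of all genes) and 1 was lower (0.877%, against 4.31%), so the higher share was close to that of all genes. Each gene named here passed that threshold. Of 17 complex IV assembly genes, *Cox15*, which makes heme a, was higher (log2FC 0.20, FDR = 0.475) and *Coa4* was lower (-0.26, FDR = 0.555). Of 3 ATP synthase assembly genes, *Atpaf2*, a chaperone of the catalytic head, was higher (0.17, FDR = 0.250). Its level was 29.7 CPM among CIE rats and 26.4 CPM among Control rats on average. DESeq2 gave *Atpaf2* an FDR of 0.0283.

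Of 13 genes for electron carriers and ubiquinone synthesis, *Pdss2*, which helps to build the ubiquinone tail, was higher (0.17, FDR = 0.462). Of 12 genes for mitochondrial DNA maintenance and transcription, *Tfb2m*, a transcription factor of mitochondrial DNA, was higher (0.14, FDR = 0.450), as was the nucleoside kinase gene *Tk2* (0.16, FDR = 0.484). None of these passed 5% FDR in edgeR's test. The nominal count was 0 in both directions for 8 other complex I assembly genes, 5 complex III assembly genes, 14 regulators such as *Ppargc1b*, 15 genes of the tricarboxylic acid cycle and pyruvate dehydrogenase, 11 membrane carriers and 16 glycolytic genes. Their median log2FC values lay between -0.07 and -0.02. The share of negative values ran from 8 of 14 regulators to 14 of 16 glycolytic genes.

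The 12 matching names under the count minimum were *Atp5h-ps1*, *Atp5hl1*, *Cox6a2*, *Cox6c-ps1*, *Cox7a2*, *Cox7b*, *Cox8b*, *Cox8c*, *Ndufa10*, *Ndufb4l1*, *Ndufv3-ps1* and *Uqcrb-ps1*. *Cox6a2* and *Cox8b*, isoforms known from heart and skeletal muscle, reached at most 21 and 14 counts in a rat. *Cox7a2* and *Ndufa10*, subunits used in most tissues, were listed at 0 in every rat, and *Cox7b* reached 8 counts. The names *Cox7a2l2* (64.5 CPM among CIE rats and 73.0 CPM among Control rats on average) and *Ndufa10l1* (86.6 and 88.0 CPM) were well counted. Values of these copies, and of *Ndufa7l*, *Ndufb4-ps1* and *Ndufs5-ps1*, are uncertain, since the counting of reads that fit several genes is not given in the sources used here.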

How the data were processed

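Paired reads were mapped by the authors with BWA (Rnor_6.0) and assigned to genes with HTSeq, and the deposited values are raw counts for 12 rats. BWA is not splice-aware, and the annotation, strand and overlap settings are not given in the sources used here, which bears on short, spliced, overlapping and duplicated genes. The group comparison used edgeR 4.0.16 (R 4.3.3, TMM, filterByExpr, quasi-likelihood F test, two-sided, no covariates). It was tried on simulated counts in which genes varied independently and 200 of them changed by a log2FC of 1 in size. At 5% FDR it recovered 133 of these and called 1 unchanged gene. Changes as small as those of most members were not simulated. FDR values are Benjamini-Hochberg adjusted over 20944 genes, CPM values are TMM-normalized, and SE was derived from the log2FC and its F value. P values set the difference between the groups against the spread between rats. DESeq2 1.42.0 and limma 3.58.1 were alternatives, together with other library scalings, other filters and each rat left out. Figures used Python 3.11.15 and matplotlib 3.10.9.

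The members, the lists and the tests were chosen with earlier results of these data known. Named genes are any member at 5% FDR, the 12 members with the smallest p, all mitochondrially encoded members, the nuclear subunit of each complex with the highest mean CPM, tissue isoforms, and the smallest nominal p of each pathway list. A gene that this rule selects is not reported here. Promoters and names came from RefSeq (GRCr8). Its coordinates are not those of the counts.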

Additional observations from a re-analysis of the deposited data

Results flagged for a closer look

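In 88 groups of 6 rats that were checked, 4 held a rat far from the others, and chance gives about 1 in 20 groups. CIE rat 3 stood above the other CIE rats for *Atp5j2* (44.0 CPM, others 30.7 to 35.4) and for *Ndufa2* (30.3 CPM, others 17.6 to 21.5). CIE rat 4 stood above them for *ND4* (2825 CPM, others 2434 to 2565). CIE rat 2 stood above them for *Cox15* (34.2 CPM, others 26.2 to 28.8), and without that rat the log2FC of *Cox15* was 0.15 and did not pass the nominal threshold.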

How the results depend on the processing

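The count of members at a nominal p value below 0.05 was 8. It moved to 25 under limma-voom with sample quality weights, and over the 12 fits with 1 rat left out its lowest value was 2 (Control rat 10 omitted) and its highest 48 (CIE rat 3 omitted). The other 6 settings gave 6 to 9. At 5% FDR the count was 0, except 1 with DESeq2. The median log2 fold change of nuclear members stayed negative, from -0.19 to -0.08 over the left-out rats. That of the mitochondrial members ranged from -0.18 to 0.03 and was above 0 without Control rat 10. The difference in the mitochondrial share of counts ranged from -0.423 to 0.118 percentage points over the left-out rats.

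Over the left-out rats the sign turned in at least 1 fit in 25 of the 105 members. None of these was among the 8 nominal members, and the value farthest from 0 among them was that of *Uqcr11* (-0.15 with all rats), named after its value was seen. Under limma-voom, *ND1* had 0.0225, *ND2* 0.0271, *ND4* 0.0361 and *ND5* 0.0594, and without a filter *COX1* had -0.0003444. Of the named genes over the left-out rats, *ATP6* ranged from -0.192 to 0.0189, *ATP8* from -0.204 to 0.00433, *COX1* from -0.0475 to 0.0926, *CYTB* from -0.163 to 0.0289, *ND1* from -0.183 to 0.0520, *ND2* from -0.175 to 0.0529, *ND4* from -0.126 to 0.0702, *ND4L* from -0.181 to 0.00452, *ND5* from -0.0974 to 0.0790, *ND6* from -0.0289 to 0.135, *Sdha* from -0.0545 to 0.00823 and *Ndufa4l2* from -0.0953 to 0.0327. The cause was not tested. Depth limits *Cox4i2*, *Cox6b2* and *Cox7b2*, which had 39 to 199, 46 to 253 and 4 to 57 counts per rat.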

Other observations

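The ribosomal RNAs encoded by mitochondrial DNA, which are no members and were looked at after the members' values were seen, were lower in the CIE group at a nominal p value below 0.05. *Rnr2* (16S) ranged from 3172 to 4259 CPM (median 3601) among CIE rats and from 3677 to 5471 CPM (median 5078) among Control rats. The log2FC was -0.43 (SE 0.10, FDR = 0.113 in edgeR's test), and DESeq2 gave FDR = 0.0104. *Rnr1* (12S) ranged from 1321 to 1856 CPM and from 1516 to 2537 CPM, and had a log2FC of -0.44 (SE 0.12, FDR = 0.197). Over the left-out rats the values stayed between -0.50 and -0.39 for *Rnr2* and between -0.52 and -0.37 for *Rnr1*.

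Per 100 counts of the 13 mitochondrial protein-coding genes, both ribosomal RNAs together had 10.3 to 11.4 counts in the CIE rats and 11.8 to 15.6 counts in the Control rats. The groups did not overlap on this scale, whereas they overlapped in CPM for both genes. Control rat 10 was the Control rat closest to the CIE group. How often other ratios of genes separate the groups was not examined. Libraries were selected for poly-A RNA, and how far that selection differed between libraries was not tested.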
